A study of Homo sapiens with 16 samples.

Results

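Moxifloxacin, a fluoroquinolone antibiotic, was given at 1.1 uM to planar cultures of islets differentiated from HUES08, an established line of human embryonic stem cells, and the cultures were compared with cultures given the solvent DMSO. The moxifloxacin libraries were taken by their treatment label and make up 2 of the 16 libraries of the study, and 2 further libraries carry the DMSO label. The remaining 12 libraries, 2 for each of colchicine (10 nM), epirizole (2.5 uM), Ly-294002 (120 nM), rottlerin (1.23 uM), vardenafil (125 nM) and rimonabant (125 nM), serve as a background of other treated cultures. All 16 cultures were labelled wild type and batch 1, came from the same cell line, and were treated from stage 5 of the differentiation until day 7 of stage 6. Bulk total RNA of whole cultures was sequenced after depletion of ribosomal RNA. The compounds had been proposed by a computational tool as ones that may act on the maturation of beta cells. Nothing in the labels tells if a treatment's 2 libraries came from separate differentiations, and a p-value therefore reflects library-to-library spread only, possibly technical.

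Fluoroquinolones kill bacteria by trapping gyrase and topoisomerase IV, the type II topoisomerases that relieve DNA supercoiling. In patients the class is known for disturbances of blood glucose, for slowing cardiac repolarisation through the potassium channel KCNH2 and for tendon injury. Closing of the beta cell ATP-sensitive potassium channel, chelation of iron needed by collagen-modifying dioxygenases, and action on mitochondrial DNA topology have been studied as routes to these effects. Mature beta cells secrete insulin when glucose metabolism closes that channel and calcium enters, and calcium and cAMP signals also switch on immediate-early genes such as EGR1, FOS and NR4A1 within minutes.

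Values are CPM, read counts scaled by TMM-adjusted library size, and log2 differences with their standard errors (SE) come from edgeR's quasi-likelihood fit of all 16 libraries. Library totals were 26433740 and 28277384 reads in moxifloxacin 1 and 2, against 23294377 and 26449943 in DMSO 1 and 2, within a range of 23294377 to 30701868 over the 16 libraries. Several genes that define mature beta cells were scarce: IAPP had no more than 1 read in any of the 16 libraries, G6PC2 no more than 7 and MAFA no more than 11. INS, the insulin gene, lay at 1.64 and 6.25 CPM in moxifloxacin 1 and 2, against 3.01 and 0.652 CPM in DMSO 1 and 2. The cultures are therefore described by their label and not as mature islets.

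The endocrine share differed sharply between the 2 moxifloxacin cultures. CHGA, a protein of hormone granules, was at 52.8 and 309.5 CPM in moxifloxacin 1 and 2, against 170.5 and 90.2 CPM in DMSO 1 and 2. Moxifloxacin 1 was therefore below both DMSO libraries for CHGA and moxifloxacin 2 above both. Somatostatin (SST) followed the same order, at 3.81 and 27.2 CPM in moxifloxacin against 13.2 and 5.60 CPM in DMSO, and so did NKX6-1, a transcription factor of beta cells, at 0.839 and 8.61 CPM in moxifloxacin against 6.58 and 3.61 CPM in DMSO. Glucagon (GCG) was at 2.56 and 9.79 CPM in moxifloxacin and 4.88 and 4.22 CPM in DMSO. PDX1, a transcription factor of pancreatic progenitors and beta cells, was at 48.3 and 50.3 CPM in moxifloxacin and 36.4 and 30.7 CPM in DMSO, so its groups did not overlap. The mean log2 CPM of 17 tested pan-endocrine genes, used below as the endocrine level of a culture, was 3.05 in moxifloxacin 1 and 4.59 in moxifloxacin 2, against 4.03 in DMSO 1 and 3.19 in DMSO 2. Moxifloxacin 2 was the most endocrine of the 16 cultures and moxifloxacin 1 ranked 11, with DMSO 1 and 2 at ranks 6 and 9. In these bulk samples fewer cells of a type and less RNA per cell cannot be told apart. Each result is for this reason given in both moxifloxacin libraries singly.

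Several immediate-early genes were lower in both moxifloxacin cultures, as described below, and the promoters of 4 of them are shown because short motifs for stimulus-dependent factors lie in them. The windows run from 250 bases before to 50 bases after the annotated start, 300 bases in all, from the RefSeq promoter table (GRCh38.p14), 5′ to 3′ on the gene's strand. Capitals mark 3 motifs found by letter search: the CArG box, bound by serum response factor, TGACG on either strand, the core of the cAMP response element, and TATAAA on the gene's strand. No marked motifs overlapped.
EGR1 (chr5:138465229-138465528, plus strand): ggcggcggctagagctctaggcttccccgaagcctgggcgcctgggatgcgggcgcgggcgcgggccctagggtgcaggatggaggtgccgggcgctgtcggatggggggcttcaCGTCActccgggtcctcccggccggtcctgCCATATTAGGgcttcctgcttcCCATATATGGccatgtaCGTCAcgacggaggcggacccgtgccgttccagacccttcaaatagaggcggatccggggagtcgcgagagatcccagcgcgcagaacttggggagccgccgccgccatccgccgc
EGR2 (chr10:62816317-62816616, minus strand): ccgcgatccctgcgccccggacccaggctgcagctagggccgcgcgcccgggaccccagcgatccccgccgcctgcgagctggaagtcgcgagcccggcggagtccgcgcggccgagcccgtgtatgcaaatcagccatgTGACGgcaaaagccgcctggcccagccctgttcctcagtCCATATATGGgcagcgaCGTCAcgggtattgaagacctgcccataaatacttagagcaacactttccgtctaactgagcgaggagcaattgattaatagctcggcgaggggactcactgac
FOS (chr14:75278578-75278877, plus strand): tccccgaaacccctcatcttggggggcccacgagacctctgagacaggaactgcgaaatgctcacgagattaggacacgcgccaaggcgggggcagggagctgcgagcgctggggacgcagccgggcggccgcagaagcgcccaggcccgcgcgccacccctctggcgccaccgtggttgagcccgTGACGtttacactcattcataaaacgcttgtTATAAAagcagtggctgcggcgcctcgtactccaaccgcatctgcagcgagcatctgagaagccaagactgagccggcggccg
FOSB (chr19:45467746-45468045, plus strand): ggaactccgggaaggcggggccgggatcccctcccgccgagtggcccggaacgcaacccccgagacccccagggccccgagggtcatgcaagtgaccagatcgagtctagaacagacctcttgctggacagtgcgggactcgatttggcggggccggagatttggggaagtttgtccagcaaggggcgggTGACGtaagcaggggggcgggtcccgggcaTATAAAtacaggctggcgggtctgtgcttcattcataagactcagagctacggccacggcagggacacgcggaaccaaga
EGR1 holds 2 CArG boxes and 2 TGACG cores, and EGR2 holds 1 CArG box and 2 TGACG cores in the window with most matches of its 3 windows. FOS and FOSB each hold 1 TGACG core and a TATAAA that starts at -33 and -30 from the annotated start. Among all 35116 windows of the same length, 1.29% held a CArG box, 24.6% a TGACG core and 7.33% a TATAAA. Of the 23 immediate-early genes listed, 17 were matched in the table, and 3 of these had a CArG box, 13 a TGACG core and 5 a TATAAA in at least 1 window, against 1.6%, 28.4% and 8.99% of all 27305 genes with a window. The full element TGACGTCA, which contains TGACG, was found in 1 of the 17 (DUSP1) and in 2.25% of all genes. A match is a description of the letters and says nothing of which factor was bound.

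Across the transcriptome no gene passed an adjusted p of 0.05 between moxifloxacin and DMSO in edgeR (0 of 24515 tested genes, 0%, smallest adjusted p = 0.248). At an unadjusted p below 0.05 there were 2908 genes (11.9%), where 5% of the tested genes is 1226, with 1474 higher (6.01%) and 1434 lower (5.85%) in moxifloxacin. Both moxifloxacin libraries lay above both DMSO libraries for 5695 genes (23.2%) and below both for 5975 genes (24.4%). DESeq2, run on the same counts and genes, called 62 genes (0.253%) at an adjusted p below 0.05, of which 37 were higher and 25 lower in moxifloxacin. All 62 had an unadjusted edgeR p below 0.05 and had both moxifloxacin libraries outside the 2 DMSO libraries. Words such as higher and lower below describe levels, and a gene is said to be called only by the tool named. The 2 comparisons with DMSO and with the other compounds share the moxifloxacin libraries, and every treated group is set against the same 2 DMSO libraries.

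Base composition moved with the direction. The median GC content of transcripts was 57.98% among genes higher at an unadjusted p below 0.05 and 41.88% among genes lower, against 47.8% over all tested genes. GC-rich relative to GC-poor genes stood at log2 -0.04 and 0.06 in moxifloxacin 1 and 2, against -0.30 and -0.36 in DMSO 1 and 2, which were the lowest of the 16 libraries. After a GC trend was removed from each library, 2893 of the 2908 genes kept their direction, 1558 still had a p below 0.05, and their median absolute log2 difference was 0.34 in place of 0.46. Among the genes described below with an absolute log2 difference over 0.3, the correction lowered the difference by over 1.5 times in PLPPR3 (0.64 after it), SELENON (0.33), PCSK1N (0.43), CDX1 (0.42), MMP15 (0.28), CEBPA (0.24), MVD (0.22), POLRMT (0.22), CDKN1A (0.19), BAX (0.16), TFAM (-0.17), CCNG1 (-0.22), PCM1 (-0.22), ATM (-0.21) and ATR (-0.20), and for CHGA, KCNJ11 and GABRA2, whose differences are within 2 SE. For RAMP1, COL2A1 and the tubulin, DNA break repair and insulin release lists the corrected value stands beside the result.

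PDE10A (ENSG00000112541, chromosome 6, 165327287 to 165988078, minus strand), which encodes a phosphodiesterase that degrades cAMP and cGMP, had the smallest p of all 24515 genes. It was at 40.6 and 44.3 CPM in moxifloxacin 1 and 2, against 63.9 and 65.6 CPM in DMSO 1 and 2. The 2 moxifloxacin values were close together and well apart from DMSO, and the 12 libraries of the other compounds, at 42.7 to 54.0 CPM, were also all below DMSO. The log2 difference was -0.61 (SE 0.09, edgeR adjusted p = 0.248; DESeq2 adjusted p = 0.000695), and it was -0.17 (SE 0.07) against the mean of the other compounds. RAMP1 (ENSG00000132329, chromosome 2, 237858893 to 237912114, plus strand), the subunit that turns the calcitonin receptor-like receptor into a receptor for the neuropeptide CGRP, ran the other way, at 35.0 and 43.6 CPM in moxifloxacin and 23.8 and 22.9 CPM in DMSO, with the other compounds at 25.4 to 45.9 CPM. Its log2 difference was 0.75 (SE 0.14, adjusted p = 0.289; DESeq2 adjusted p = 0.00653), which the GC correction brought to 0.44, and 0.24 (SE 0.10) against the other compounds. EGR3, a zinc-finger transcription factor of the immediate-early class, was at 7.82 and 9.20 CPM in moxifloxacin and 18.2 and 17.0 CPM in DMSO, a log2 difference of -1.05 (SE 0.26, adjusted p = 0.294; DESeq2 adjusted p = 0.0349). PCNA (ENSG00000132646, chromosome 20, 5114953 to 5126626, minus strand), the sliding clamp of DNA replication, was at 23.8 and 17.3 CPM in moxifloxacin and 33.8 and 31.5 CPM in DMSO, a log2 difference of -0.67 (SE 0.20, adjusted p = 0.302), and DESeq2 did not call it (adjusted p = 0.121). The 4 genes had both moxifloxacin libraries outside both DMSO libraries, where 23.2% of all genes lay above both and 24.4% below both. They are the marker genes named for this comparison, so the lack of overlap is no separate support. In PCNA the endocrine-rich library moxifloxacin 2 was the lower of the pair.

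**Figure D1:**
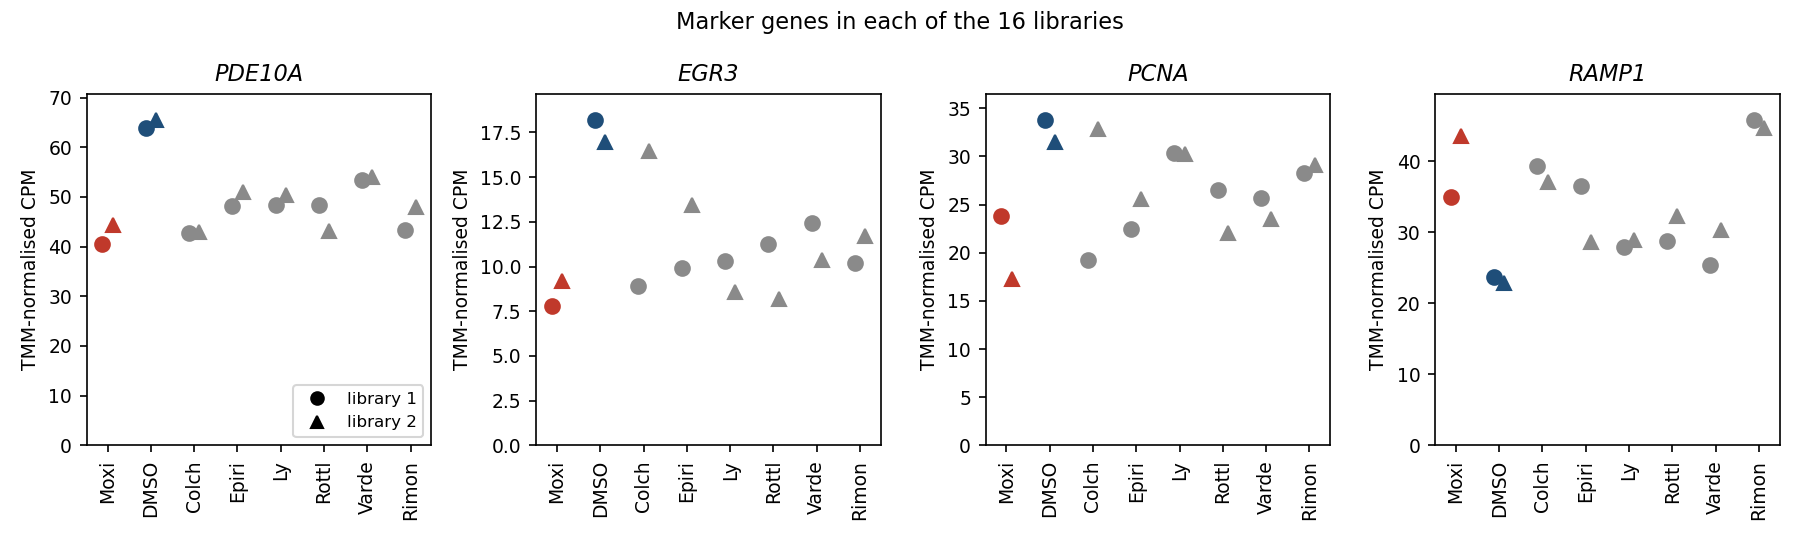
Level of PDE10A, EGR3, PCNA and RAMP1 (vertical axis, TMM-normalised CPM, from 0) in each of the 16 libraries, with the treatments along the horizontal axis (moxifloxacin, DMSO, colchicine, epirizole, Ly-294002, rottlerin, vardenafil and rimonabant) and a circle and a triangle for library 1 and 2. For PDE10A the moxifloxacin libraries lie at 40.6 and 44.3 CPM and the DMSO libraries at 63.9 and 65.6 CPM, above every treated library.

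Among genes higher in moxifloxacin, UBL5, RHOC, RAMP1 and SELENON had the smallest p. UBL5, a ubiquitin-like protein that takes part in pre-mRNA splicing, was at 48.9 and 52.3 CPM in moxifloxacin and 33.2 and 26.1 CPM in DMSO, a log2 difference of 0.77 (SE 0.14) that was 0.21 (SE 0.10) against the other compounds. RHOC, a small GTPase of the actin cytoskeleton, was at 79.5 and 86.4 CPM in moxifloxacin against 58.5 and 54.9 CPM in DMSO, and the endoplasmic reticulum selenoprotein SELENON at 145 and 139 CPM in moxifloxacin against 107 and 92.5 CPM in DMSO. CYBA, the p22phox subunit of NADPH oxidases, was at 53.5 and 53.7 CPM in moxifloxacin and 36.1 and 27.7 CPM in DMSO. COL2A1, the collagen of cartilage, was at 731 and 849.8 CPM in moxifloxacin and 564 and 542 CPM in DMSO, a log2 difference of 0.51 (SE 0.10) that the GC correction brought to 0.28. PIK3CD, the catalytic PI3 kinase subunit p110 delta, was at 16.4 and 15.9 CPM in moxifloxacin against 9.81 and 10.3 CPM in DMSO, and PLPPR3, a membrane protein of the lipid phosphatase-related family, at 26.4 and 31.2 CPM in moxifloxacin against 14.7 and 13.4 CPM in DMSO. TMEM74B (log2 difference 0.72), FAM151A (1.38) and B4GAT1-DT (0.56) were also among the higher genes, B4GAT1-DT being a divergent transcript whose reads cannot be told from those of an overlapping gene where strand is unknown. RN7SL1, the RNA of the signal recognition particle, was at 9769 and 8382 CPM in moxifloxacin and 5239.8 and 3722 CPM in DMSO, but it has near-identical copies between which reads could be split. DESeq2 called all 12 higher genes, RAMP1 included, beside 0.253% of all genes. The 12 were chosen by a small edgeR p and no overlap in the same libraries, so these calls are no separate support. The transcripts of the 12 genes had 48.8% (UBL5) to 71.3% (PLPPR3) GC.

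The genes lower in moxifloxacin were led by PDE10A and ATF3. ATF3, a stress- and mitogen-induced transcription factor, was at 75.9 and 73.5 CPM in moxifloxacin and 122 and 114 CPM in DMSO, with no overlap and a log2 difference of -0.67 (SE 0.12, edgeR adjusted p = 0.289; DESeq2 adjusted p = 0.00843). The splicing factor PRPF38A was at 44.3 and 40.3 CPM in moxifloxacin against 57.7 and 60.6 CPM in DMSO, the kinesin-associated protein KIFAP3 at 34.6 and 28.8 CPM in moxifloxacin against 44.3 and 45.4 CPM in DMSO, and the centriolar satellite protein PCM1 at 266 and 257 CPM in moxifloxacin against 319 and 343 CPM in DMSO. MEOX1, a homeobox factor of mesoderm, was at 0.534 and 0.243 CPM in moxifloxacin and 2.14 and 2.00 CPM in DMSO. HAPLN1, which links proteoglycans to hyaluronan, was at 1.22 and 0.694 CPM in moxifloxacin against 5.88 and 3.38 CPM in DMSO, a log2 difference of -2.27 (SE 0.51). DPPA4, a nuclear protein of pluripotent cells, was at 0.915 and 0.729 CPM in moxifloxacin against 3.27 and 4.37 CPM in DMSO, and SHISA2, which holds FGF and WNT receptors in the endoplasmic reticulum, at 2.44 and 1.25 CPM in moxifloxacin against 6.06 and 5.72 CPM in DMSO. CA8, a carbonic anhydrase-related protein of calcium signalling, was at 2.56 and 1.67 CPM in moxifloxacin and 7.45 and 6.33 CPM in DMSO. KLHL4 was at 0.381 and 0.659 CPM in moxifloxacin against 2.75 and 2.07 CPM in DMSO. The long noncoding RNA DIRC3 was at 0.534 and 0.486 CPM in moxifloxacin and 2.01 and 1.92 CPM in DMSO, and the moxifloxacin libraries were also below all 12 libraries of the other compounds (0.547 to 2.00 CPM). Reads of an overlapping gene could enter DIRC3, since the strand setting of the counting is not given. With PDE10A, DESeq2 called 11 of the 12 lower genes, PCM1 being the exception (adjusted p = 0.0599), beside 0.253% of all genes. The lower genes were chosen in the same way as the higher ones, so these calls are no separate support either. The transcripts of the 12 lower genes had 37.7% (HAPLN1) to 52.6% (MEOX1) GC.

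**Figure D2:**
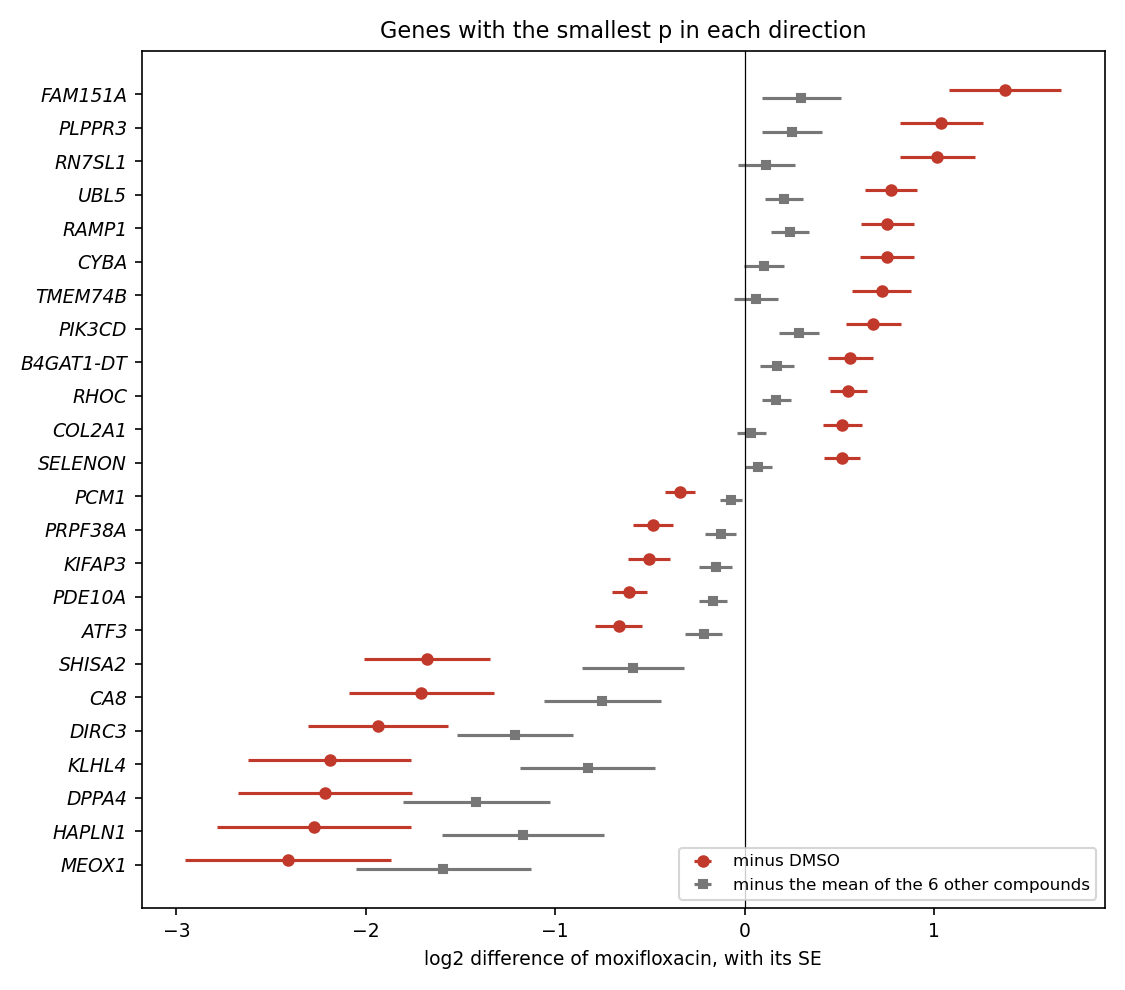
Log2 difference of moxifloxacin (horizontal axis, bars show the SE) for the 12 higher and 12 lower genes with the smallest p, against DMSO (red circles) and against the mean of the 6 other compounds (grey squares). Each of the 24 genes lies nearer to 0 against the other compounds than against DMSO, as PDE10A does with -0.17 against -0.61.

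Immediate-early genes, which cells transcribe without new protein synthesis after a stimulus, lay low in both moxifloxacin cultures. Of 22 tested members 18 were below DMSO, and 13 had both libraries below both DMSO libraries where 24.4% of all genes did. At an unadjusted p below 0.05, 10 were lower and 0 higher, beside 5.85% and 6.01% of all genes, and 0 passed the adjusted threshold in edgeR. The list median of the log2 difference was -0.39, beside -0.01 over all tested genes. It was -0.34 in moxifloxacin 1 and -0.46 in moxifloxacin 2, so the cultures with the lower and the higher endocrine level stood close together. In the 12 libraries of the other compounds the median ran from -0.58 to 0.12, with 11 of 12 below 0, and against those compounds the moxifloxacin median was -0.14.

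The EGR family encodes zinc-finger activators that follow MAP kinase and calcium signals. EGR1 was at 372 and 331 CPM in moxifloxacin and 500.3 and 558 CPM in DMSO, a log2 difference of -0.59 (SE 0.14; DESeq2 adjusted p = 0.0391). EGR2 was at 10.0 and 8.43 CPM in moxifloxacin against 14.2 and 16.2 CPM in DMSO. Thus 3 of 3 tested EGR genes, counting EGR3, had the moxifloxacin libraries below DMSO without overlap, as 24.4% of all genes did. The 12 libraries of the other compounds were also all below DMSO for EGR1 (326 to 480 CPM) and EGR3 (8.17 to 16.5 CPM). Against the mean of those compounds the log2 differences were -0.15 (SE 0.10) for EGR1 and -0.36 (SE 0.20) for EGR3. Of the AP-1 genes, FOSB was at 191 and 174 CPM in moxifloxacin and 355 and 384 CPM in DMSO, a log2 difference of -1.02 (SE 0.27) that DESeq2 called (adjusted p = 0.0131). FOS was at 326 and 271 CPM in moxifloxacin against 447 and 466 CPM in DMSO and JUN at 205 and 193 CPM in moxifloxacin against 254 and 259 CPM in DMSO, both without overlap. JUNB overlapped, at 35.5 and 32.7 CPM in moxifloxacin and 35.5 and 30.3 CPM in DMSO. DUSP6, a phosphatase that ERK induces to limit itself, was at 14.0 and 14.1 CPM in moxifloxacin against 20.1 and 23.9 CPM in DMSO, and KLF4 at 30.8 and 27.4 CPM in moxifloxacin against 35.9 and 42.4 CPM in DMSO. Of the NR4A nuclear receptors, which cAMP and calcium induce, NR4A3 was at 7.86 and 5.90 CPM in moxifloxacin and 10.2 and 10.6 CPM in DMSO, NR4A1 at 96.5 and 102 CPM in moxifloxacin against 123 and 129.6 CPM in DMSO, and NR4A2 at 8.05 and 7.18 CPM in moxifloxacin against 10.6 and 9.78 CPM in DMSO. MYC parted the 2 cultures, with 8.01 and 1.94 CPM in moxifloxacin 1 and 2 against 7.54 and 8.86 CPM in DMSO 1 and 2. IER2, IER3, BTG2, ZFP36, SRF and DUSP1 differed from DMSO by log2 -0.09, 0.24, 0.08, -0.06, 0.04 and -0.15, none at an unadjusted p below 0.05.

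**Figure D3:**
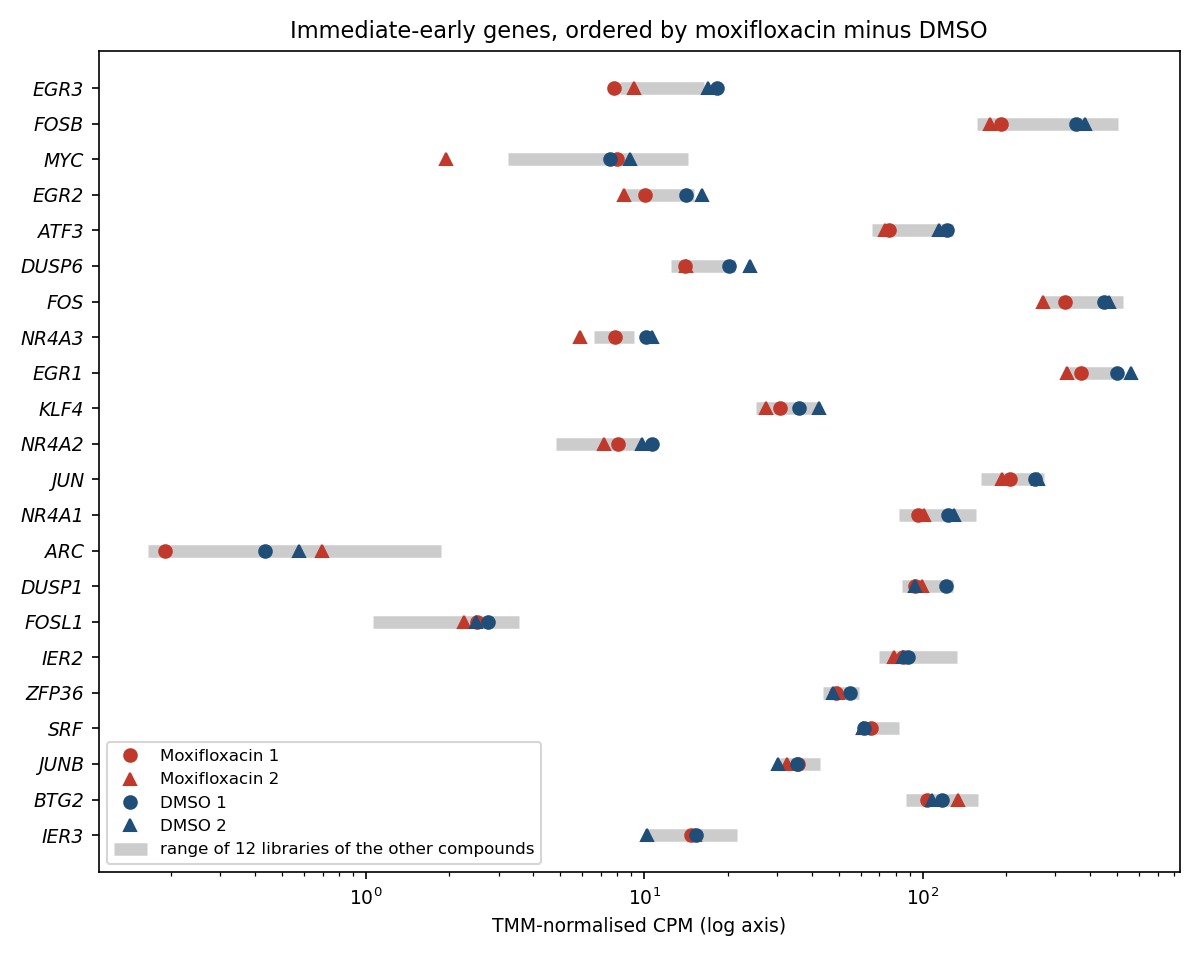
Level of the 22 tested immediate-early genes (horizontal log axis, TMM-normalised CPM) in moxifloxacin 1 and 2 (red) and DMSO 1 and 2 (blue), with the range of the 12 libraries of the other compounds in grey and genes ordered by moxifloxacin minus DMSO. For the 13 genes with the lowest differences, EGR3 to NR4A1, the red symbols sit left of the blue ones except in MYC, and FOSB reads 191 and 174 CPM in moxifloxacin against 355 and 384 CPM in DMSO.

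The cAMP response list, which shares the NR4A genes, DUSP1 and PDE10A with other lists, had 11 of 16 tested members below DMSO, 3 of them at an unadjusted p below 0.05, and a median of -0.26, where 50.67% of all genes were below DMSO and 5.85% lower at that level. Its median deviation was -0.15 in moxifloxacin 1 and -0.22 in moxifloxacin 2, the fit gave -0.14 without moxifloxacin 2 and -0.16 without DMSO 1, and it was below 0 in 12 of 12 libraries of the other compounds. CREB1, the activator that binds the cAMP response element, was at 133 and 119 CPM in moxifloxacin and 146 and 154 CPM in DMSO. CREM, the related modulator, was at 17.5 and 15.4 CPM in moxifloxacin against 15.6 and 16.2 CPM in DMSO and overlapped. Of 21 tested phosphodiesterases, 10 were above and 11 below DMSO, with a median of -0.06, so PDE10A did not share its direction with the whole family. PDE7B, a cAMP-specific member, was lower at 1.64 and 0.382 CPM in moxifloxacin and 3.01 and 3.07 CPM in DMSO, and PDE1C, which calmodulin activates, was higher at 3.36 and 4.16 CPM in moxifloxacin against 2.66 and 2.00 CPM in DMSO. PDE3A, which cGMP inhibits, was at 479.6 and 456 CPM in moxifloxacin against 420.1 and 327 CPM in DMSO, and PDE5A at 72.4 and 92.0 CPM in moxifloxacin against 85.0 and 58.0 CPM in DMSO. RAMP1's partner receptor CALCRL lay opposite to it, at 1.33 and 1.04 CPM in moxifloxacin and 2.31 and 2.30 CPM in DMSO, a log2 difference of -0.96 (SE 0.34). The ligand genes CALCA and CALCB had no more than 7 and 10 reads in any library, RAMP2 was at 0.648 and 0.694 CPM in moxifloxacin against 0.915 and 0.576 CPM in DMSO, and adrenomedullin (ADM) at 38.1 and 42.5 CPM in moxifloxacin against 42.0 and 29.9 CPM in DMSO.

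Genes of cell division were lower in the endocrine-rich moxifloxacin culture and nearer to DMSO in the other. All 21 tested mitosis genes were below DMSO in the fit, 2 of them at an unadjusted p below 0.05, and 13 had both libraries below both DMSO libraries, where 5.85% of all genes were lower at that level and 24.4% had both libraries below. The median was -0.50, made of -0.15 in moxifloxacin 1 and -0.89 in moxifloxacin 2, and the fitted median was -0.89 without moxifloxacin 1 and -0.15 without moxifloxacin 2. Moxifloxacin 2 was below all 12 libraries of the other compounds, which ran from -0.72 to 0.21. MKI67, the proliferation antigen, was at 109.9 and 59.4 CPM in moxifloxacin 1 and 2 against 128 and 123 CPM in DMSO 1 and 2, and CENPF, a kinetochore protein, at 84.5 and 43.8 CPM in moxifloxacin against 102 and 106 CPM in DMSO. CCNA2 (cyclin A2) was at 11.6 and 7.53 CPM in moxifloxacin against 15.5 and 18.0 CPM in DMSO, a log2 difference of -0.81 (SE 0.32), and the spindle motor KIF11 at 31.8 and 19.9 CPM in moxifloxacin against 38.4 and 38.2 CPM in DMSO. Of 23 tested replication genes, 21 were below DMSO, 3 at an unadjusted p below 0.05 (5.85% of all genes), with a median of -0.28 that was -0.07 in moxifloxacin 1 and -0.46 in moxifloxacin 2. Besides PCNA, CCNE2 (cyclin E2) was at 1.37 and 2.39 CPM in moxifloxacin and 3.27 and 3.49 CPM in DMSO, and the replication licensing factor CDC6 at 11.8 and 8.16 CPM in moxifloxacin against 15.7 and 12.7 CPM in DMSO. POLD1 and CDT1 were the members above DMSO, at log2 0.16 (SE 0.16) and 0.13 (SE 0.38). Against the mean of the 6 other compounds, 23 of 23 replication and 21 of 21 mitosis genes were below, with medians of -0.31 and -0.37, beside 0.00 over all tested genes; 4 and 1 of them had an unadjusted p below 0.05, where 1.35% of all genes were lower at that level. Among those compounds, 6 of the 12 libraries lay above and 6 below DMSO for either list. Adjusting for the endocrine level left the mitosis median at -0.47 and the replication median at -0.26. That level was 3.05 and 4.59 in moxifloxacin 1 and 2 and 4.03 and 3.19 in DMSO 1 and 2, so the groups overlapped. A median that stays near its value then says little of the part of the endocrine share, which was not tested.

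Mesenchymal genes also lay lower, again most in moxifloxacin 2. Of 19 tested members 17 were below DMSO and 15 had both libraries below both DMSO libraries, as 24.4% of all genes did. At an unadjusted p below 0.05, 8 were lower and 1 higher, beside 5.85% and 6.01% of all genes. The median was -0.79, with -0.27 in moxifloxacin 1 and -1.28 in moxifloxacin 2, and the fit gave -1.27 without moxifloxacin 1 and -0.26 without moxifloxacin 2. In the 12 libraries of the other compounds it ran from -1.07 to 0.41, with 10 of 12 below 0 and a middle value of -0.38, lower than moxifloxacin 1. Moxifloxacin 2 was the lowest of the 16 libraries, and against those compounds the moxifloxacin median was -0.36. Some members were low in both moxifloxacin cultures alike. POSTN, periostin of the matrix, was at 75.1 and 62.4 CPM in moxifloxacin and 145 and 158 CPM in DMSO, a log2 difference of -1.14 (SE 0.31; DESeq2 adjusted p = 0.0131). The small proteoglycans DCN and LUM were at 16.2 and 18.3 CPM in moxifloxacin against 41.8 and 52.0 CPM in DMSO and 21.6 and 20.3 CPM in moxifloxacin against 37.3 and 40.4 CPM in DMSO, and the receptor PDGFRA at 46.7 and 44.6 CPM in moxifloxacin against 65.0 and 78.5 CPM in DMSO. Other members were low mainly in moxifloxacin 2. The transcription factor PRRX1 was at 32.4 and 5.21 CPM in moxifloxacin 1 and 2 against 45.9 and 27.6 CPM in DMSO 1 and 2, TWIST1 at 10.6 and 2.19 CPM in moxifloxacin against 15.2 and 12.3 CPM in DMSO, and the collagen receptor DDR2 at 31.1 and 6.35 CPM in moxifloxacin against 46.5 and 41.9 CPM in DMSO. VIM and the smooth muscle gene TAGLN were the members above DMSO, at 137 and 157 CPM in moxifloxacin against 132 and 79.8 CPM in DMSO for TAGLN. The endocrine level was 3.05 and 4.59 in these 2 cultures against 4.03 and 3.19 in DMSO. With that level as a covariate the list median was -0.83. Since the levels of the 2 groups overlapped, this value says little of the part of the endocrine share, which was not tested.

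**Figure D4:**
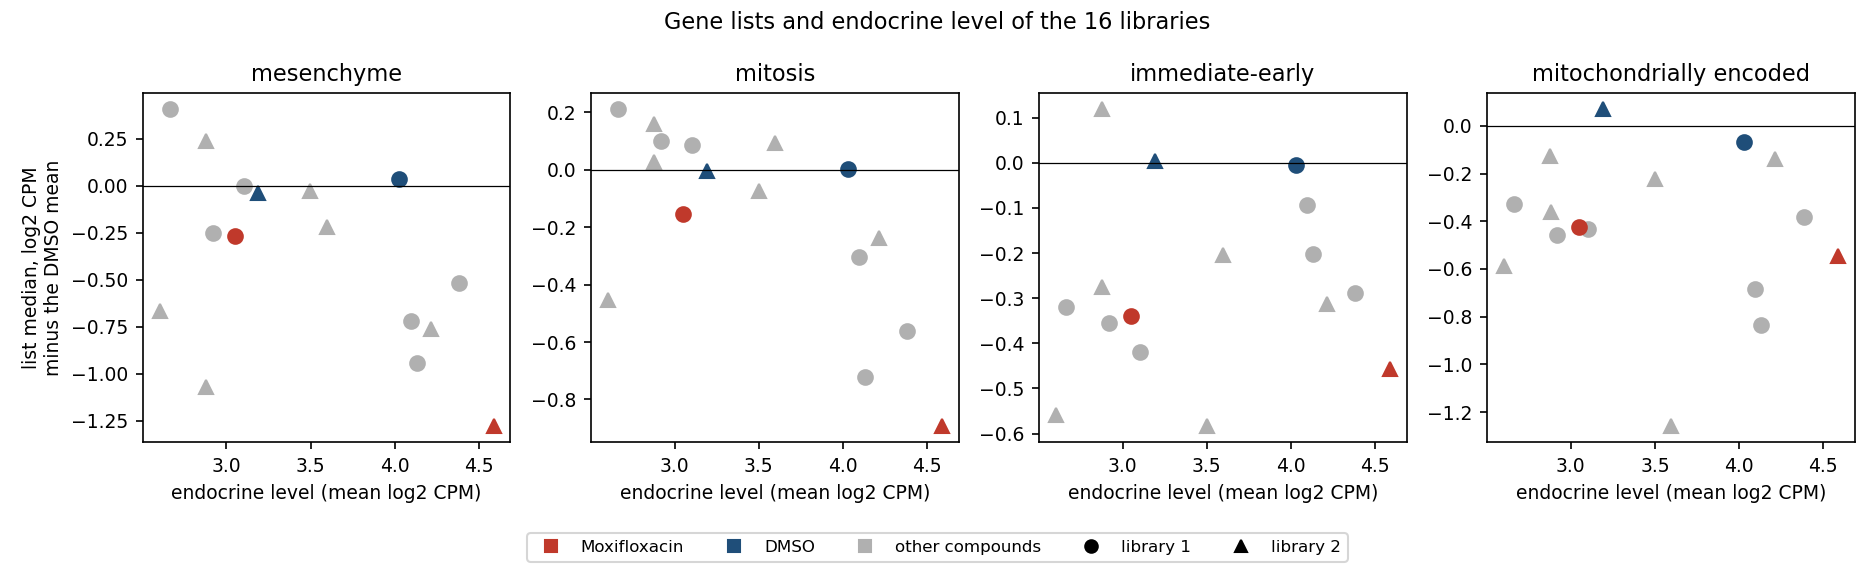
Median deviation from the DMSO mean (vertical axis, log2 CPM) of the mesenchyme, mitosis, immediate-early and mitochondrially encoded lists against the endocrine level of the culture (horizontal axis, mean log2 CPM of 17 genes) in the 16 libraries. Moxifloxacin 2, at an endocrine level of 4.59, is lowest for mesenchyme (-1.28) and mitosis (-0.89), while for the immediate-early list moxifloxacin 1 and 2 lie at -0.34 and -0.46.

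Matrix genes were mixed. Of 22 tested collagens, 9 were above and 13 below DMSO, with a median of -0.27 that was 0.00 in moxifloxacin 1 and -0.32 in moxifloxacin 2, and 0.01 in the fit without moxifloxacin 2 and -0.18 without DMSO 2. The fibrillar chains of mesenchyme were lower, with COL1A2 at 365 and 215 CPM in moxifloxacin and 456 and 418 CPM in DMSO and COL3A1 at 811 and 435 CPM in moxifloxacin against 1007 and 929 CPM in DMSO. The basement membrane chain COL4A2 was higher, at 1024 and 1113 CPM in moxifloxacin against 922 and 854 CPM in DMSO, as was COL2A1. Of 15 tested matrix metalloproteinases, relatives and inhibitors, 12 were above DMSO, 5 of them at an unadjusted p below 0.05 (6.01% of all genes) and 2 lower, with a median of 0.26 in the fit, 0.28 in moxifloxacin 1 and 0.30 in moxifloxacin 2. All 12 libraries of the other compounds were likewise above 0, and against them the median was -0.02. MMP11 was at 35.4 and 33.2 CPM in moxifloxacin and 23.4 and 16.8 CPM in DMSO, the membrane-bound MMP15 at 77.4 and 82.0 CPM in moxifloxacin against 58.2 and 48.8 CPM in DMSO, and the gelatinase MMP2, made by mesenchyme, was lower at 13.5 and 7.60 CPM in moxifloxacin against 19.8 and 19.1 CPM in DMSO. Of 21 tested dioxygenases that need iron and 2-oxoglutarate, 9 were above and 12 below DMSO with a median of -0.02. The lysyl hydroxylase PLOD2 was at 236 and 181 CPM in moxifloxacin against 304 and 311 CPM in DMSO, and the prolyl hydroxylase subunit P4HA1 at 207 and 150.1 CPM in moxifloxacin against 246 and 299.8 CPM in DMSO. TET2, which oxidises methylcytosine, was at 129.8 and 130.4 CPM in moxifloxacin against 146 and 157 CPM in DMSO, and the histone demethylase KDM4B at 145 and 144 CPM in moxifloxacin against 128 and 112 CPM in DMSO.

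Iron genes were evenly split, 8 above and 8 below DMSO, with a median of 0.00. The transferrin receptor TFRC, whose mRNA is stabilised when iron is short, was lower, at 138 and 141 CPM in moxifloxacin and 176 and 188 CPM in DMSO, a log2 difference of -0.38 (SE 0.12). Ferritin heavy chain FTH1 overlapped, at 491 and 468 CPM in moxifloxacin against 469 and 480.5 CPM in DMSO. Hypoxia and glycolysis genes were lower in 17 of 20 tested members, 6 at an unadjusted p below 0.05 (5.85% of all genes) and none higher at that level, with a median of -0.46, -0.28 in moxifloxacin 1 and -0.67 in moxifloxacin 2. The fitted median was -0.67 without moxifloxacin 1, -0.28 without moxifloxacin 2 and -0.31 without DMSO 2. In the 12 libraries of the other compounds the list median ran from -0.83 to 0.15, with 9 of 12 below 0, and against those compounds the moxifloxacin median was -0.13. Phosphoglycerate kinase PGK1 was at 320.2 and 245 CPM in moxifloxacin and 365 and 421 CPM in DMSO, enolase ENO1 at 656 and 522 CPM in moxifloxacin against 754 and 953 CPM in DMSO, and lactate dehydrogenase LDHA at 583 and 426 CPM in moxifloxacin against 711 and 859 CPM in DMSO. ANKRD37, a target of hypoxia-inducible factor, was at 2.02 and 2.29 CPM in moxifloxacin against 3.05 and 4.64 CPM in DMSO. VEGFA and ADM differed by log2 -0.25 (SE 0.21) and 0.17 (SE 0.22).

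Transcripts of the mitochondrial genome were lower in moxifloxacin without exception. All 13 protein-coding genes were below DMSO, 6 at an unadjusted p below 0.05 (5.85% of all genes), and in all 13 both moxifloxacin libraries lay below both DMSO libraries (24.4% of all genes). The median was -0.49, with -0.42 in moxifloxacin 1 and -0.55 in moxifloxacin 2. All 12 libraries of the other compounds were also below 0, from -1.26 to -0.13, and against them the moxifloxacin median was -0.04. MT-ND6, the complex I subunit on the light strand, was at 282 and 255 CPM in moxifloxacin and 432 and 578 CPM in DMSO. MT-ND2 of the heavy strand was at 1072 and 923 CPM in moxifloxacin against 1500.2 and 1759 CPM in DMSO, and MT-CO1, of complex IV, at 6427 and 5929.7 CPM in moxifloxacin against 7454 and 7582 CPM in DMSO. Reads shared with nuclear copies of mitochondrial sequence may be split. Nuclear genes of oxidative phosphorylation ran the other way, with 22 of 28 above DMSO, 10 higher at an unadjusted p below 0.05 (6.01% of all genes) and 0 lower, and a median of 0.17 (0.17 in moxifloxacin 1, 0.18 in moxifloxacin 2) that was 0.29 without DMSO 1 and 0.11 without DMSO 2. The complex III subunit UQCR10 was at 34.6 and 34.2 CPM in moxifloxacin and 25.2 and 23.3 CPM in DMSO and the complex IV subunit COX5B at 27.7 and 29.01 CPM in moxifloxacin against 22.1 and 19.3 CPM in DMSO. For this list too all 12 libraries of the other compounds were above 0, and the median against them was 0.05.

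Genes that copy and transcribe the mitochondrial genome differed little as a list, with 12 of 17 below DMSO and a median of -0.06. TFAM, which packages mitochondrial DNA, was at 62.4 and 50.9 CPM in moxifloxacin and 68.4 and 71.2 CPM in DMSO, the RNA stability factor LRPPRC at 269 and 228 CPM in moxifloxacin against 293 and 319.6 CPM in DMSO, and the mitochondrial RNA polymerase POLRMT, higher, at 25.0 and 27.3 CPM in moxifloxacin against 17.7 and 18.6 CPM in DMSO. Mitochondrial stress genes were lower in 16 of 19 tested members, 7 at an unadjusted p below 0.05 (5.85% of all genes), with a median of -0.23, -0.14 in moxifloxacin 1 and -0.29 in moxifloxacin 2, and -0.13 in the fit without moxifloxacin 2 and -0.14 without DMSO 2. This list median was below 0 in 10 of 12 libraries of the other compounds as well, and against those compounds the moxifloxacin median was -0.10. The chaperone HSPA9 was at 185 and 172 CPM in moxifloxacin and 212 and 244 CPM in DMSO, the serine synthesis enzyme PSAT1 at 29.4 and 26.2 CPM in moxifloxacin against 39.1 and 54.1 CPM in DMSO, and the folate enzyme MTHFD2 at 65.3 and 50.5 CPM in moxifloxacin against 85.4 and 101 CPM in DMSO. ASNS, asparagine synthetase and a target of ATF4, was at 6.22 and 5.17 CPM in moxifloxacin against 9.55 and 8.98 CPM in DMSO. HSPE1 alone was higher at that level, at 15.7 and 16.2 CPM in moxifloxacin against 14.2 and 9.94 CPM in DMSO. Of 18 tested genes of the unfolded protein and integrated stress responses, 7 were above and 11 below DMSO, with a median of -0.13 (-0.03 without moxifloxacin 2, -0.05 without DMSO 2 and -0.19 without DMSO 1), and DDIT3 was at 16.7 and 14.7 CPM in moxifloxacin against 15.3 and 15.9 CPM in DMSO.

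**Figure D5:**
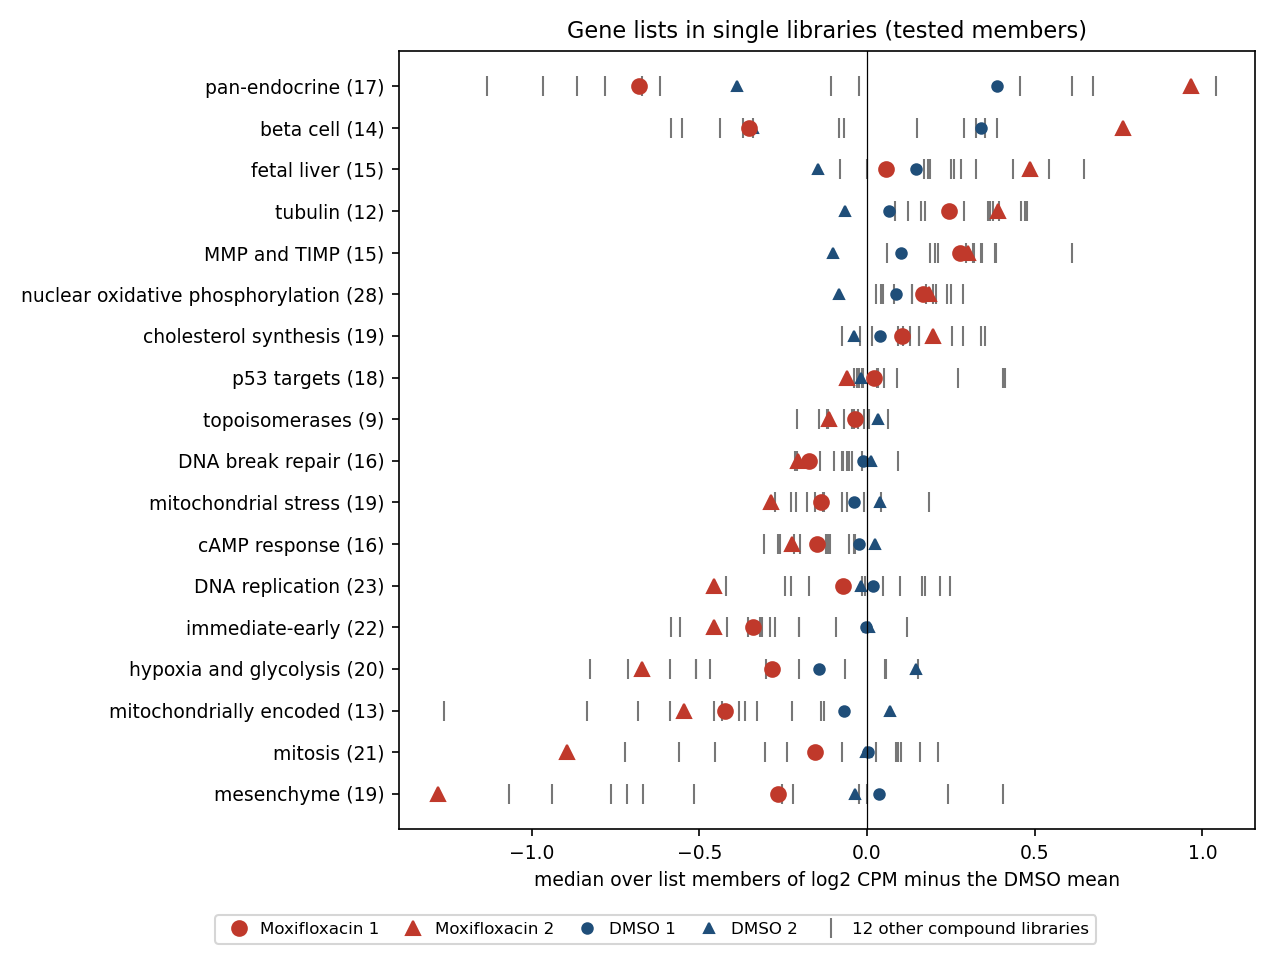
Median over the tested members of 18 gene lists (number in brackets) of log2 CPM minus the DMSO mean, in moxifloxacin 1 and 2 (red), DMSO 1 and 2 (blue) and the 12 libraries of the other compounds (grey ticks). The moxifloxacin libraries lie on opposite sides of 0 for the pan-endocrine list (-0.68 and 0.97) and on the same side for the mitochondrially encoded list (-0.42 and -0.55), where every grey tick is below 0 too.

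TOP2A and TOP2B, the human type II topoisomerases related to the bacterial targets, lay below DMSO without overlap, while the median of the wider topoisomerase list lay near DMSO. Of 9 topoisomerase genes and partners, 7 were below DMSO with a median of -0.07. In 5 of the 9 both moxifloxacin libraries lay below both DMSO libraries (24.4% of all genes). At an unadjusted p below 0.05 in edgeR, 2 were lower (5.85% of all genes) and 1 higher (6.01%). TOP2B, the type II enzyme of non-dividing cells, was at 305 and 284 CPM in moxifloxacin and 333 and 355 CPM in DMSO, a log2 difference of -0.22 (SE 0.09, unadjusted p = 0.0253, adjusted p = 0.367). TOP2A, its relative in dividing cells, was at 76.2 and 41.4 CPM in moxifloxacin 1 and 2 against 103 and 94.2 CPM in DMSO 1 and 2. Its log2 difference was -0.75, and its libraries stood in the same order as for MKI67. TOP1 was at 182 and 166 CPM in moxifloxacin against 203 and 214 CPM in DMSO, and TOP3B was higher at 39.5 and 40.3 CPM in moxifloxacin against 34.4 and 31.4 CPM in DMSO. The mitochondrial enzymes TOP1MT and TOP3A overlapped, with log2 differences of -0.06 (SE 0.12) and -0.02 (SE 0.12), as did the repair enzyme TDP2, which removes trapped type II topoisomerases (0.07, SE 0.16). TDP1 and TOPBP1 differed by log2 -0.14 (SE 0.12) and -0.07 (SE 0.11).

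Other proteins on which fluoroquinolones are known to act showed no common direction: 12 of 15 were tested, 6 above and 6 below DMSO, with a median of 0.00. KCNH2, the cardiac hERG channel, was at 3.39 and 4.51 CPM in moxifloxacin and 3.88 and 3.72 CPM in DMSO and overlapped. ABCC8 and KCNJ11, the subunits of the ATP-sensitive potassium channel, were highest in moxifloxacin 2, ABCC8 at 6.29 and 29.7 CPM in moxifloxacin 1 and 2 against 13.7 and 5.91 CPM in DMSO 1 and 2, and KCNJ11 at 1.75 and 3.40 CPM in moxifloxacin against 1.87 and 1.61 CPM in DMSO. Of the GABA-A receptor subunits, GABRA2 was at 91.4 and 83.9 CPM in moxifloxacin against 116 and 112 CPM in DMSO without overlap. GABRA3, GABRA5, GABRB1 and GABRB2 overlapped, with log2 differences of -0.92, 0.07, -0.06 and -0.61, none at an unadjusted p below 0.05, and the adenosine receptor ADORA1 was at 0.687 and 1.74 CPM in moxifloxacin against 0.436 and 0.998 CPM in DMSO. MRGPRX2 had at most 1 read in any library and was not tested. Of genes that handle the drug, UGT1A1, which glucuronidates it, had no more than 2 reads, while the uptake transporter SLCO2B1 was at 105 and 116 CPM in moxifloxacin and 81.6 and 62.7 CPM in DMSO, a log2 difference of 0.61 (SE 0.15). The list as a whole had 2 of 7 tested members above DMSO and a median of -0.06.

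Genes of insulin release followed the same split by culture. Their median over 18 tested members was 0.12, with -0.37 in moxifloxacin 1 and 0.20 in moxifloxacin 2. It was 0.06 with the GC correction, 0.21 without moxifloxacin 1 or without DMSO 1, -0.40 without moxifloxacin 2 and 0.03 without DMSO 2. CACNA1C, the pore of an L-type calcium channel, was low in both cultures, at 26.7 and 23.9 CPM in moxifloxacin and 46.5 and 39.6 CPM in DMSO, with a log2 difference of -0.77 (SE 0.18; DESeq2 adjusted p = 0.0369). The L-type relative CACNA1D was at 9.96 and 14.4 CPM in moxifloxacin against 15.3 and 13.7 CPM in DMSO, and the P/Q-type CACNA1A at 8.24 and 30.5 CPM in moxifloxacin against 16.3 and 8.02 CPM in DMSO. Of 17 pan-endocrine genes 16 were above DMSO in the fit, with a median of 0.34, but it was -0.68 in moxifloxacin 1 and 0.97 in moxifloxacin 2, and the fit gave 0.88 without moxifloxacin 1 or without DMSO 1, -0.92 without moxifloxacin 2 and 0.14 without DMSO 2. PCSK1N, an inhibitor of prohormone convertase, was the only member above DMSO at an unadjusted p below 0.05, at 8.39 and 16.5 CPM in moxifloxacin and 7.28 and 6.02 CPM in DMSO. The beta cell list had a median of 0.30, with -0.35 and 0.76 in moxifloxacin 1 and 2, and the fit gave 0.63 without DMSO 1 and -0.08 without DMSO 2. With the endocrine level as a covariate the beta cell median was 0.00. That level is itself a mean of pan-endocrine genes in the same libraries. The adjusted value therefore says little of the part of the endocrine share, which was not tested.

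Markers of p53 and DNA damage are described because poisoned topoisomerases break DNA. Of 18 tested p53 targets 9 were above and 9 below DMSO, with a median of -0.01, 2 higher and 1 lower at an unadjusted p below 0.05 (6.01% and 5.85% of all genes). CDKN1A, the p21 inhibitor of the cell cycle, was at 61.4 and 66.8 CPM in moxifloxacin and 53.3 and 47.5 CPM in DMSO, a log2 difference of 0.35 (SE 0.10, adjusted p = 0.299), and it was -0.09 (SE 0.08) against the other compounds. BAX, which permeabilises mitochondria, was at 46.2 and 49.2 CPM in moxifloxacin against 40.4 and 35.7 CPM in DMSO, and CCNG1 was lower at 200.2 and 171 CPM in moxifloxacin against 225 and 248 CPM in DMSO. MDM2 was at 309 and 286 CPM in moxifloxacin against 337 and 334 CPM in DMSO and GDF15 at 11.7 and 14.1 CPM in moxifloxacin against 13.6 and 16.6 CPM in DMSO. Of 16 DNA break repair genes 14 were below DMSO and 13 had both libraries below both DMSO libraries (24.4% of all genes), 5 at an unadjusted p below 0.05 (5.85% of all genes), with a median of -0.18 (-0.17 in moxifloxacin 1, -0.21 in moxifloxacin 2) that the GC correction brought to -0.12. The list median was also below 0 in 11 of 12 libraries of the other compounds, and against those compounds the moxifloxacin median was -0.08. The kinase ATM was at 133 and 125 CPM in moxifloxacin and 161 and 164 CPM in DMSO, ATR at 61.6 and 63.3 CPM in moxifloxacin against 76.0 and 80.6 CPM in DMSO, and BRCA1 at 16.2 and 12.3 CPM in moxifloxacin against 20.7 and 22.1 CPM in DMSO. H2AX was above DMSO, at 23.0 and 18.7 CPM in moxifloxacin against 16.7 and 16.9 CPM in DMSO.

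Tubulin genes were higher in all 12 tested members, 7 at an unadjusted p below 0.05 (6.01% of all genes), with a median of 0.33, against -0.01 over all tested genes, 0.25 in moxifloxacin 1 and 0.39 in moxifloxacin 2. TUBA1A was at 330.1 and 394 CPM in moxifloxacin and 263 and 213 CPM in DMSO, TUBB3 of neurons at 28.8 and 34.8 CPM in moxifloxacin against 19.8 and 19.99 CPM in DMSO, and TUBB2A at 28.5 and 35.5 CPM in moxifloxacin against 21.4 and 16.1 CPM in DMSO, which DESeq2 called (adjusted p = 0.0493). Tubulins have close copies, so reads may be split between them. All 12 libraries of the other compounds were above DMSO as well, from 0.08 to 0.48, the moxifloxacin median against them was 0.03, and the GC correction brought 0.33 to 0.21. Cholesterol synthesis genes were above DMSO in 16 of 19 tested members, 6 at an unadjusted p below 0.05 (6.01% of all genes), with a median of 0.14. For cholesterol synthesis 10 of 12 libraries of the other compounds were above 0 too, and against those compounds the moxifloxacin median was 0.01. The demethylase CYP51A1 was at 5.99 and 5.62 CPM in moxifloxacin and 3.40 and 2.99 CPM in DMSO, and MVD at 59.5 and 60.8 CPM in moxifloxacin against 40.2 and 46.0 CPM in DMSO. Of 15 liver genes 12 were above DMSO, with a median of 0.32 that was 0.06 in moxifloxacin 1 and 0.49 in moxifloxacin 2, and 0.53 without DMSO 1 and 0.19 without DMSO 2. The liver median was above 0 in 10 of 12 libraries of the other compounds, and against those compounds the moxifloxacin median was 0.06. Apolipoprotein APOA1 was at 195 and 225 CPM in moxifloxacin against 150.1 and 106 CPM in DMSO (DESeq2 adjusted p = 0.0462) and the liver factor CEBPA at 38.1 and 35.7 CPM in moxifloxacin against 27.0 and 24.0 CPM in DMSO. Of 14 gut genes 9 were above DMSO with a median of 0.18 (0.34 without moxifloxacin 2, 0.05 without DMSO 2), among them the intestinal factors CDX2 at 95.2 and 120.4 CPM in moxifloxacin against 77.5 and 68.3 CPM in DMSO and CDX1 at 10.8 and 11.0 CPM in moxifloxacin against 6.67 and 7.10 CPM in DMSO.

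Set against the mean of the 6 other compounds, with no DMSO library in the comparison, ALDH8A1, SP8 and CRTAP lay below and GABARAPL2, CTSS and UBXN8 above every library of the other compounds in both moxifloxacin cultures. No gene passed the adjusted threshold (0 of 24515, smallest adjusted p = 0.9999, and 0 by DESeq2), and 575 genes (2.35%) had an unadjusted p below 0.05, fewer than the 1226 that make 5% of the tested genes, with 244 higher (0.995%) and 331 lower (1.35%). Both moxifloxacin libraries lay above all 12 other libraries for 126 genes (0.514%) and below all 12 for 166 genes (0.677%). ALDH8A1, an aldehyde dehydrogenase of retinoid and tryptophan metabolism, had the smallest p of the lower genes named here, at 0.42 and 0.486 CPM in moxifloxacin and 0.785 to 1.83 CPM over the other compounds, a log2 difference of -1.48 (SE 0.33); DMSO was at 1.39 and 1.27 CPM. SP8, a developmental zinc-finger factor, was at 0.61 and 0.798 CPM in moxifloxacin against 0.885 to 1.98 CPM over the other compounds, and the caveolar ATPase EHD2 at 10.8 and 10.6 CPM in moxifloxacin against 11.9 to 18.0 CPM over the other compounds. CRTAP, part of the collagen prolyl 3-hydroxylation complex, was at 54.6 and 50.7 CPM in moxifloxacin against 55.9 to 76.5 CPM over the other compounds, and here DMSO, at 53.4 and 54.7 CPM, lay beside moxifloxacin. TRIML2 and the sodium pump subunit ATP1A4 differed by log2 -1.02 (SE 0.29) and -1.03 (SE 0.32). GABARAPL2, an autophagosome protein of the ATG8 family, was at 50.3 and 49.1 CPM in moxifloxacin against 38.3 to 45.3 CPM over the other compounds, a log2 difference of 0.23 (SE 0.07), with DMSO at 47.6 and 43.8 CPM. The lysosomal protease CTSS was at 2.56 and 2.57 CPM in moxifloxacin against 1.14 to 2.18 CPM over the other compounds, UBXN8, an adaptor of the p97 ATPase, at 5.03 and 5.52 CPM in moxifloxacin against 2.76 to 4.79 CPM over the other compounds, and PHETA2 at 4.54 and 5.34 CPM in moxifloxacin against 1.79 to 4.13 CPM over the other compounds. LBX2-AS1 is antisense to another gene, EEF1DP2 is a pseudogene, and SRGAP2B, NOTCH2NLR and NPIPA5 have near-identical copies, so their differences (log2 0.48, 0.83, -0.51, 0.65 and 0.87) are uncertain.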

How the data were processed

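Poly-A-independent libraries (KAPA RNA HyperPrep with RiboErase) were sequenced by the authors, who per the labels' protocols used FastQC 0.11.8, Trimmomatic 0.38, STAR 2.7.1a, Picard 2.20.4, StringTie 2.0.4 and featureCounts 1.6.0, with HTSeq and GRCh38 named in the submitters' processing notes. The values are raw read counts per gene as deposited by the authors, unnormalised and with no filter stated; the annotation release and strand setting are not given in the sources used here, so antisense and overlapping genes cannot be separated. All 62754 genes of the deposited table were read, and 24515 passed filterByExpr and hold 99.92% of the reads. Symbols came from the deposited table, and positions and GC content from GENCODE 29.

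Counts of all 16 libraries were fitted with edgeR 4.0.16 (R 4.3.3, limma 3.58.1; TMM, robust quasi-likelihood, 8 groups, 8 residual degrees of freedom), with two-sided tests and Benjamini-Hochberg adjustment over all tested genes at 0.05. DESeq2 1.42.0 was an alternative. CPM are TMM-normalised; a library's median deviation for a list uses log2 CPM (prior count 2) minus the DMSO mean. A count of 0 allows up to 3 reads, 0.0977 to 0.129 CPM, counting error only. Endocrine level is the mean log2 CPM of the tested pan-endocrine genes, and the GC offset a lowess trend (span 0.3) removed from each library. The procedure was tested on simulated data.

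Named are the 4 marker genes, the 12 genes with the smallest p in each direction against DMSO (symbol, mean of at least 1 CPM, no overlap), up to 4 members of each list by p, all fluoroquinolone targets and topoisomerases, and 8 genes in each direction against the other compounds; a few of these are not reported here. Further list members were added for their role after their values were seen. Members and lists were chosen with earlier results of these data known. Alternatives were another scaling or tool, no filter, a 4-library fit, covariates, a replicate block and leaving out single libraries. Figures used matplotlib 3.10.9.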

Additional observations from a re-analysis of the deposited data

How the results depend on the processing

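Single libraries left out for the comparison with DMSO were the 4 of moxifloxacin and DMSO, and those fits are given as effect sizes. In edgeR the count of genes past an adjusted p of 0.05 between moxifloxacin and DMSO was 0. It was also 0 with RLE or upper-quartile scaling and the replicate block (2633 to 2932 genes at an unadjusted p below 0.05). It was 0 too with the endocrine covariate, the GC offset, and both of these (2179 to 3386). It was 62 with DESeq2, 742 with no filter on low counts (331 higher, 411 lower, 59 of them among the DESeq2 calls; the median prior degrees of freedom became infinite where they were 7.041 with the filter) and 5 with the 4 moxifloxacin and DMSO libraries alone; for DESeq2 and the 4-library fit the cause was not tested. The 5 genes, named after their values were seen, were FOSB, POSTN, ADAM12, COL6A6 and DCN, all lower in moxifloxacin. Against the other compounds the count was 0, and 100 with no filter (26 higher, 74 lower); under the other alternatives it was 0, with 472 to 1349 genes at an unadjusted p below 0.05. RLE scaling split the unadjusted calls against DMSO into 1616 higher and 1292 lower, in place of 1474 and 1434. Libraries of the same number did not deviate together (correlation -0.171 for moxifloxacin and DMSO, -0.572 to 0.479 over 28 pairs of groups), so the numbers are not taken as pairs; the replicate block gave 0 genes (2633 unadjusted, smallest edgeR adjusted p = 0.0502). The crossed pairing, added after the data were seen, gave 0 (2702 unadjusted), and so did the endocrine covariate with the GC offset, also added then (2615). Of the 26 markers and leading genes, none changed sign under any alternative (0 of 375 values) and 24 were called by DESeq2, as were 6 of the other 186 named genes. The leading genes were chosen by a small edgeR p and no overlap with DMSO in the same libraries. Their stable sign and DESeq2 calls follow largely from that choice and are no separate support. Among the other named genes 56 of 2766 alternative values changed sign, 19 of them without moxifloxacin 2, with CHGA at -1.30 there, SST at -1.29 and INS at -0.13, against 0.48, 0.73 and 1.13 with it. Of 588 alternative list medians 62 changed sign, in 22 of the 42 lists. Genes near the floor of 3 reads are limited by counting error.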

Other observations

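Endothelial genes split in moxifloxacin. Of 9 tested members 4 were above and 5 below DMSO, with a median of -0.34 that was -0.12 in moxifloxacin 1 and -0.60 in moxifloxacin 2, and 2 were lower at an unadjusted p below 0.05 (5.85% of all genes). Both moxifloxacin libraries lay below both DMSO libraries in 5 members (24.4% of all genes) and above both in 2 (23.2%). KDR, a receptor for VEGF that mesodermal progenitors also carry, was at 0.954 and 0.625 CPM in moxifloxacin and 3.27 and 5.33 CPM in DMSO (DESeq2 adjusted p = 0.0297), and the angiopoietin receptor TEK at 0.381 and 0.521 CPM in moxifloxacin against 1.70 and 1.53 CPM in DMSO. The endothelial gene PECAM1 ran the other way, at 1.03 and 0.59 CPM in moxifloxacin against 0.523 and 0.422 CPM in DMSO (log2 0.77, SE 0.65). Of 7 tested pluripotency genes 3 were above and 4 below DMSO, with a median of -0.19 that was -0.08 in moxifloxacin 1 and -0.30 in moxifloxacin 2. The fit gave -0.29 without moxifloxacin 1 and -0.07 without moxifloxacin 2. L1TD1, an RNA-binding protein of stem cells, was at 38.0 and 37.0 CPM in moxifloxacin and 48.2 and 49.7 CPM in DMSO.

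Hormone lists beyond beta cells moved with the endocrine level of each culture. The alpha cell median was -0.04 in moxifloxacin 1 and 0.65 in moxifloxacin 2, that of delta, PP and epsilon genes -0.63 and 1.06, and that of enterochromaffin-like genes -0.72 and 0.96. Neuron and neural crest genes were at -0.22 and 0.69. Exocrine acinar genes, of which only 5 of 12 were tested, were at 0.43 and -0.41, and duct and progenitor genes at -0.02 and 0.20. Of the 11 tested duct and progenitor genes 7 were above and 4 below DMSO, with a fitted median of 0.07, where 49.33% of all genes were above. Among the lower ones was SPP1, osteopontin, at 12.8 and 12.2 CPM in moxifloxacin and 19.8 and 27.1 CPM in DMSO.

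Stress and housekeeping lists had medians close to DMSO. Of 14 oxidative stress genes 9 were above DMSO. At an unadjusted p below 0.05 in edgeR, 2 were higher and 3 lower, where 6.01% and 5.85% of all genes were. The list median was 0.10, and it was 0.19 without DMSO 1 and -0.01 without DMSO 2. The peroxiredoxin PRDX1 was at 155 and 155 CPM in moxifloxacin and 129 and 116 CPM in DMSO. The NF-kB list had a median of -0.05 over 12 genes and the interferon list 0.02 over 15. Ribosomal protein genes, 13 above and 9 below DMSO, had a median of 0.03, and RNA quality genes, 6 of 10 tested, -0.06. The part of GC content, endocrine share and each single library in the differences between moxifloxacin and DMSO was not tested beyond the values given.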
